A study of Danio rerio with 12 samples.

Results

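The Snail, Twist and Zeb genes encode transcription factors that drive epithelial cells towards a mesenchymal, migratory state. The 10 genes described here are the zebrafish members snai1a, snai1b, snai2, twist1a, twist1b, twist2, zeb1a, zeb1b, zeb2a and zeb2b, taken by name from a table of 25878 genes. Of these, 8 matched a gene name directly. For zeb1b and zeb2b no row carried the full name, so the rows named ZEB1 and ZEB2 were taken in their place and are called ZEB1 and ZEB2 below.

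RNA came from neural crest of the zebrafish trunk, in 12 libraries of 20 sorted cells each, from the transgenic line sox10:H2B-Dendra2, in which the sox10 promoter drives a histone fused to a photoconvertible protein. All embryos were labelled as control, with no other allele or agent given. Premigratory cells (4 libraries) came from the dorsal trunk at 16 hours after fertilisation and were converted in 1 hand-drawn area that held several cells. Migratory cells (8 libraries) came from embryos of 24 hours by their library names, beside somites 10 to 15, and were converted nucleus by nucleus as leaders or followers, a distinction the library names do not carry. For each population 8 embryos were converted with 4 replicates aimed for, and which embryos went into which library is not given in the sources used here.

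Snail proteins and Zeb proteins are zinc finger repressors that bind E-box sequences in the promoters of epithelial genes such as E-cadherin. Twist proteins are basic helix-loop-helix factors that bind related sites as dimers with E proteins. In the neural crest, Snail genes are among the earliest genes of crest specification, Twist genes mark cranial crest and its mesenchymal derivatives as well as parts of the mesoderm, and ZEB2 is the gene affected in Mowat-Wilson syndrome, a human disorder with defects of crest derivatives. Zebrafish often carry a pair of copies where mammals have 1 gene, hence the letters a and b.

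The deposited values are counts normalised by the authors, with no division by gene length stated, so levels are compared between libraries for 1 gene and not between genes. Fold changes are migratory minus premigratory on log2(value + 1), tested with limma over 12122 genes that reached 10 in at least 4 libraries, and a gene was called at a Benjamini-Hochberg adjusted p under 0.05. Of the 10 genes, 9 passed this filter and twist2 did not. Members snai1a, ZEB1 and ZEB2 passed through migratory libraries alone, since none of their premigratory values reached 10. A gene seen only in migratory libraries needs 4 of 8 to pass, and one seen only in premigratory libraries needs 4 of 4. The filter thus admits genes that rise more readily than genes that fall. Member twist1b just passed, with premigratory replicates 2, 3 and 4 and migratory replicate 6.

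The values summed to 10735983 to 21711424 per premigratory and 17765775 to 24227327 per migratory library. Premigratory libraries held fewer genes at 10 or more (14.1% to 26.6% of the table, against 34.8% to 46.0%), and the median over all tested genes was a log2 fold change of 2.67, against which each fold change below has to be read. SOX10 was present in all 12 libraries, at 1225 to 22646. The crest transcript crestin was at 5.97 in premigratory replicate 1 and 135 in migratory replicate 5, and at 1406 to 16239 in the other libraries. Premigratory replicate 1 held the highest epidermal signal, with all 23 rows of the epidermis and periderm list at 10 or more and a sum of 2547557, against 9872 to 444280 in the other premigratory libraries. In migratory libraries the highest sums were 1030793 for muscle and somite markers (replicate 1), 2044511 for blood markers (replicate 5) and 1078899 for epidermis markers (replicate 8).

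Of the 9 tested members, zeb2a rose and twist1b fell, while 7 did not pass the test. At an unadjusted p under 0.05, 3 of 9 members (33.3%) were higher and 1 lower, against 31.8% and 0.66% of all tested genes, so the share of higher members is the background. Among all tested genes 12.4% rose and 0.132% fell, so 1 rise among 9 genes (11.1%) is close to the background. Both background shares depend on which genes the filter admits. The median log2 fold change of the 9 tested members was 1.46, against 2.67 for all tested genes. No member separated the stages completely, whereas 4.83% of all tested genes had every migratory library above every premigratory library and 0.140% had every one below. In premigratory replicates 2, 3 and 4 both twist1 genes were high and zeb2a was low, and premigratory replicate 1 showed the reverse.

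**Figure D1:**
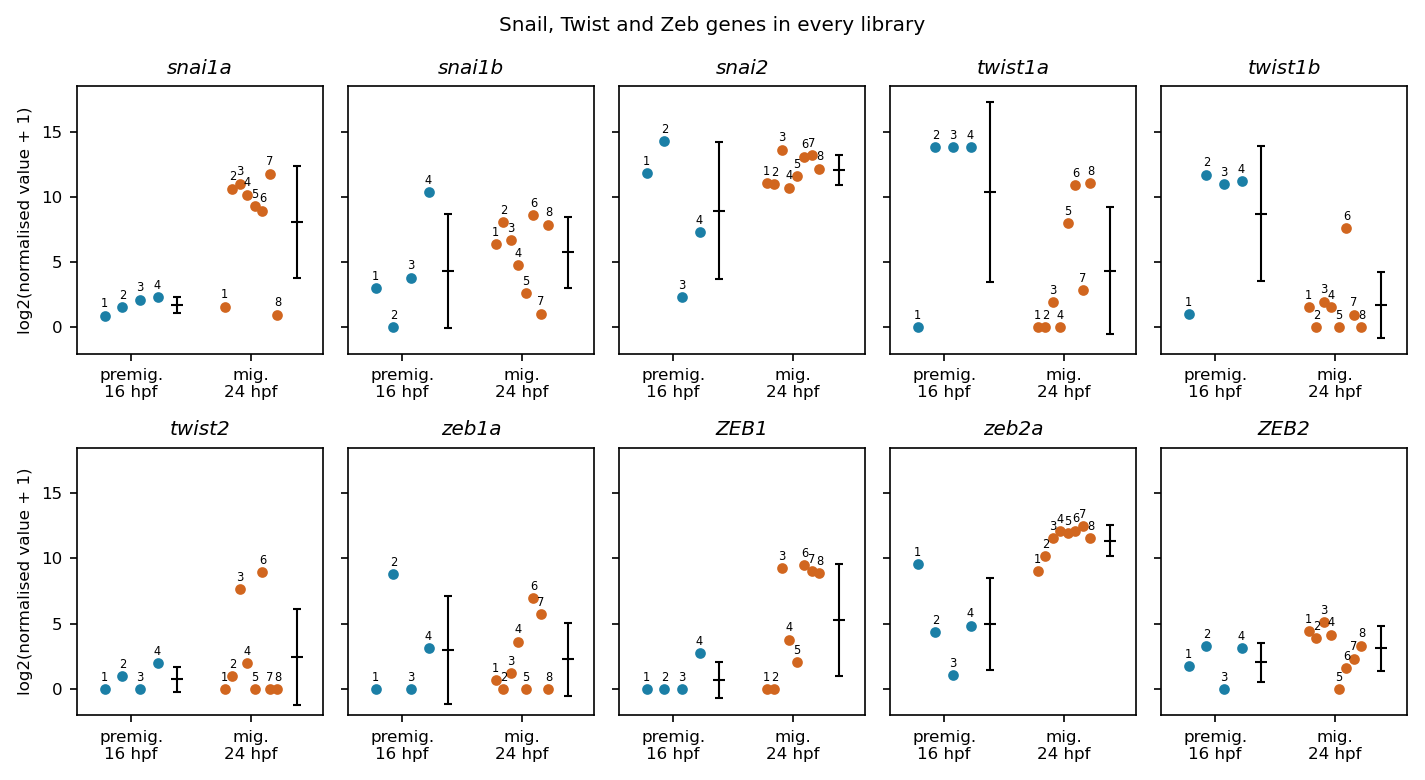
Each panel shows 1 gene, with log2(normalised value + 1) on the vertical axis, the 4 premigratory libraries in blue and the 8 migratory libraries in orange, numbered by replicate. The black bar is the mean and SD of the log2 values. Values of twist1a and twist1b were high in premigratory replicates 2 to 4, and zeb2a was at 517 or more in every migratory library.

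Of the Snail genes, snai1a (ENSDARG00000056995) is 1 of 2 zebrafish copies of the Snail gene that gave the family its name. Its values were 0.862, 1.90, 3.37 and 3.98 in premigratory replicates 1 to 4, and 0.959 to 3510 with a median of 893 in the migratory libraries. The gene was at 493 or more in 6 of 8 migratory libraries and under 2 in replicates 1 and 8, which therefore overlapped with the premigratory libraries. Its log2 fold change was 6.33 (SE 2.13, 95% interval 1.83 to 10.84) and did not pass the test over all genes in limma (adjusted p = 0.0594). Without migratory replicate 1 or 8 the value was 7.26 or 7.34 (limma, adjusted p = 0.0282 and 0.0332), but these are the 2 migratory libraries where snai1a was lowest, so leaving them out raises the value by construction and supports no call. They held the highest muscle and epidermis sums among migratory libraries, and the part of those cells in the value was not tested. In the libraries of shared batch number the migratory value was higher in 4 of 4 pairs, with log2 differences of 0.68, 9.10, 8.90 and 7.86. Pair 1 held 0.862 and 1.99, both under 10, so only pairs 2, 3 and 4 showed a clear rise. Migratory replicate 8, at 0.959, belongs to no pair.

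The second copy, snai1b (ENSDARG00000046019), is a snail gene of mesoderm and crest in the zebrafish embryo. Its values were 7.09, 0, 13.0 and 1309 in premigratory replicates 1 to 4 and 1.07 to 386 with a median of 92.1 in migratory libraries. A single premigratory library, replicate 4, held the highest value of all 12, and 6 of 8 migratory libraries but only 2 of 4 premigratory libraries reached 10. Between the stages snai1b had a log2 fold change of 1.46 (SE 2.00, 95% interval -2.76 to 5.68, limma adjusted p = 0.64), an interval that holds changes of either sign.

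The gene snai2 (ENSDARG00000040046), known as slug, is widely used as a marker of early neural crest. It was listed at 3586, 19557, 4.01 and 159 in premigratory replicates 1 to 4. Migratory values ran from 1682 to 12557 with a median of 3837. The premigratory libraries thus spread on both sides of the migratory range, and replicate 2 exceeded all others. For snai2 the log2 fold change was 3.12 (SE 1.58, 95% interval -0.23 to 6.46, limma adjusted p = 0.179). Leaving out 1 library moved it between 0.92 and 4.89. The former was without premigratory replicate 3, where snai2 was lowest (limma, adjusted p = 0.652). The latter was without premigratory replicate 2, where snai2 was highest (limma, adjusted p = 0.0433). Each omission moves the value by construction, and neither supports a call. Within a library the log2 ratio of snai1b to snai2 averaged -4.63 ± 8.29 before migration (SD, n = 4) and -6.29 ± 3.01 during it (SD, n = 8). An exact two-sided permutation test over 495 arrangements gave p = 0.614 and, adjusted over 5 pairs of genes, 0.725.

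Set against snai1b, snai1a had a mean log2 ratio of -2.58 ± 3.99 at the premigratory stage (SD, n = 4) and 2.30 ± 5.89 at the migratory stage (SD, n = 8). The difference of 4.88 did not pass the test (exact permutation, p = 0.168, adjusted p = 0.279). Within the migratory group the ratio ran from -6.91 in replicate 8 to 10.73 in replicate 7. Migratory libraries therefore differed widely in which of the copies had the signal. At these 2 extremes the lower gene was near 0 (snai1a at 0.959 in replicate 8, snai1b at 1.07 in replicate 7). The size of the ratio there rests partly on the added 1. In premigratory replicates 1 and 2 both genes were below 10, so the ratio there rests on the added 1.

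The twist1 genes ranged from high to nearly absent between libraries. For twist1a (ENSDARG00000030402), the values were 0, 14473, 14508 and 14259 in premigratory replicates 1 to 4. Of the 8 migratory libraries, replicates 5, 6 and 8 held 253, 1935 and 2109, and the other 5 lay at 0 to 6.18. Every migratory library was thus below premigratory replicates 2 to 4, and premigratory replicate 1 was listed at 0. The log2 fold change was -6.02 (SE 2.93, 95% interval -12.20 to 0.17, limma adjusted p = 0.163), not called with all libraries. Without premigratory replicate 1 the log2 fold change was -9.47 (limma, adjusted p = 0.0344), where leaving out the premigratory library listed at 0 favours this direction by construction.

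The related gene twist1b (ENSDARG00000076010) had the same distribution in the premigratory libraries. Its values were 1.00, 3341, 2029 and 2362 in replicates 1 to 4, against 0 to 197 with a median of 1.46 in migratory libraries. Migratory replicate 6 alone reached 10, with 197, and the other 7 were at 2.94 or less. The gene fell, with a log2 fold change of -7.01 (SE 2.02, 95% interval -11.27 to -2.75, limma adjusted p = 0.0336). Relative to the median of all tested genes this was -9.68 on the log2 scale. It was called under each of the 4 other scalings tried, with log2 fold changes of -8.77 to -7.37. The call was lost without any of premigratory replicates 2, 3 and 4 or migratory replicates 2, 3, 7 and 8 (limma, log2 fold changes -7.05 to -6.02, adjusted p = 0.052 to 0.104). It was also lost with the batch number as a fixed replicate block (limma, log2 fold change -7.45, adjusted p = 0.172), a difference that rests on batches 1 to 4 alone. Nor was twist1b called without a filter (limma, adjusted p = 0.0906), over batches 1 to 4, with or without the block, or with the number of detected genes as a covariate. Without premigratory replicate 1, its lowest premigratory library, the log2 fold change was -9.59 (limma, adjusted p = 0.00297). Leaving that library out enlarges the fall by construction and adds no support to the call. Within shared batch numbers twist1b was lower in 3 of 4 pairs, by log2 differences of -11.71, -9.01 and -9.64 for pairs 2, 3 and 4, and pair 1 held 1.00 and 1.94. The corresponding differences of twist1a were -13.82, -11.87 and -13.80, with 0 in both libraries of pair 1.

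Older names of the twist1 genes are crossed in the RefSeq gene table (Twist1b is a synonym of twist1a and Twist1a of twist1b), so the letters here follow the gene name table for the Ensembl identifiers. The twist1a to twist1b log2 ratio had means of 1.64 ± 1.78 before (SD, n = 4) and 2.63 ± 4.62 during migration (SD, n = 8). The difference of 0.99 between these ratios did not pass the test (exact permutation, p = 0.725, adjusted p = 0.725). It stood at 2.11, 2.84 and 2.59 in premigratory replicates 2, 3 and 4, which hold both genes, and at 3.29 in migratory replicate 6, the only migratory library with both at 10 or more. In migratory replicates 5 and 8 it was 7.99 and 11.04, because twist1a was present while twist1b was listed at 0. In the remaining libraries both genes were below 10 and the ratio rests on the added 1.

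Of the third Twist gene, twist2 (ENSDARG00000078266), known as dermo1, only 2 libraries held clear signal. Migratory replicates 3 and 6 were at 202 and 493, and the other 10 libraries at 2.95 or less. It lay below the filter, and without a filter its log2 fold change was 1.71 (SE 1.72, limma adjusted p = 0.667). The close relative twist3 did not reach 10 in any library.

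Twist1 genes are also expressed in sclerotome, the part of the somite that gives rise to the axial skeleton, so its markers are given beside them. Over 21 rows for sclerotome and fin mesenchyme the summed level ran from 2659 to 10269 before migration and from 2867 to 38935 during it, highest in migratory replicate 6, which also held twist1a, twist1b and twist2. In that library 12 of 21 rows were at 10 or more, with MEOX1 at 14678. Migratory replicate 8, with twist1a at 2109, had 10 of 21 rows at 10 or more and a sum of 16851. Most of that sum was 1 POSTN row at 12905, which was also at 2901 to 8304 in migratory replicates 2, 3, 4 and 7. Migratory replicate 5, with twist1a at 253, had 3 of 21 and a sum of 2867. In migratory replicates 1, 2, 3, 4 and 7, with twist1a at 0 to 6.18, 4 to 8 of 21 rows were at 10 or more. Their sums were 3352 to 11993, so sclerotome signal was also present where twist1a was nearly absent. In premigratory replicate 3, where twist1a was at 14508, 2 of 21 rows were at 10 or more, fgfr4 at 1418 and PTK7 at 1236, and PAX1, PAX9 and foxc1b were listed at 0. In premigratory replicate 4, where twist1a was at 14259, 5 of 21 rows were at 10 or more, led by COL2A1 at 1719 and CDH11 at 1165. In premigratory replicate 2, where twist1a was at 14473, 6 of 21 rows were at 10 or more. These included foxc1b at 3372, CDH11 at 1946 and PAX1 at 1771 in 1 of its 2 rows. Premigratory replicate 1, with twist1a at 0 and twist1b at 1.00, had 3 of 21 rows at 10 or more, led by COL2A1 at 2237 and MEOX1 at 1910. Its list sum was 4161, against 10269, 2659 and 2979 in premigratory replicates 2, 3 and 4. The part of sclerotome cells in the twist1 values was not tested. The libraries are pools of cells, so fewer cells with a gene and less of its RNA per cell cannot be told apart.

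**Figure D2:**
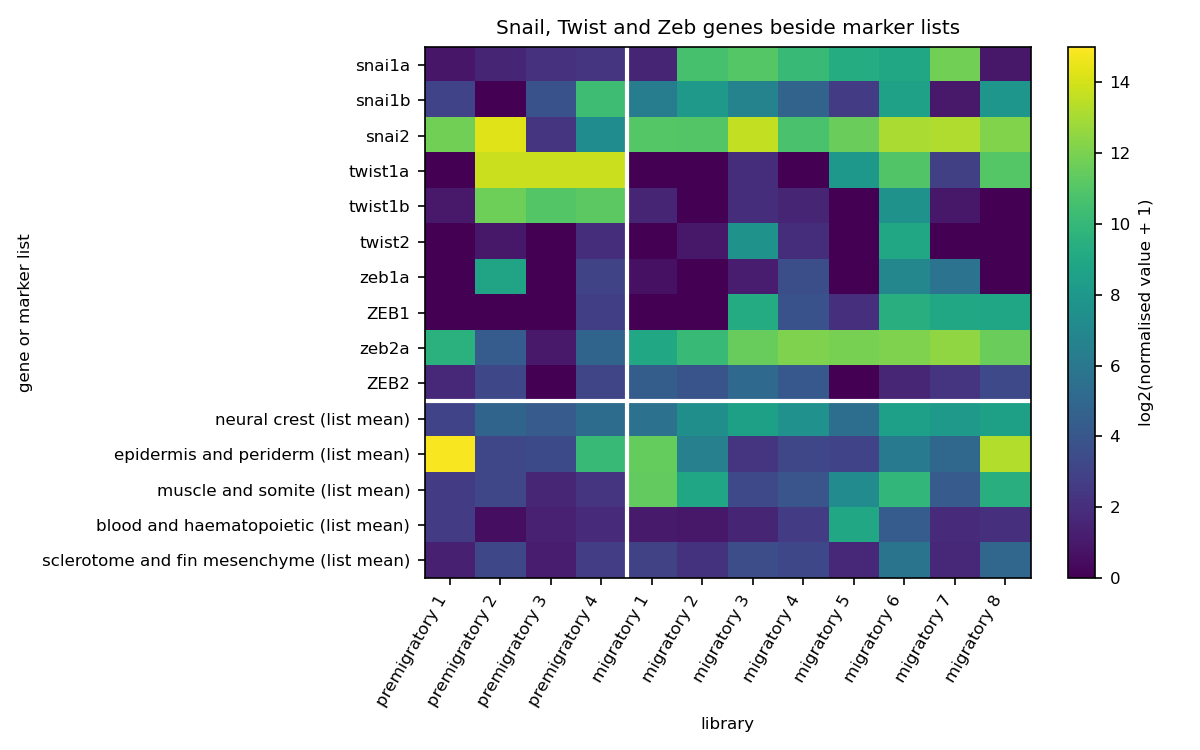
Colour gives log2(normalised value + 1) for the 10 genes (upper rows) and the mean of log2(value + 1) over 5 marker lists (lower rows) in each of the 12 libraries (columns), with white lines between genes and lists and between stages. Premigratory replicate 1 had the highest epidermis list mean, 14.83, with twist1a at 0, twist1b at 1.00 and zeb2a at 763. Premigratory replicate 4, with a list mean of 10.10, held twist1a at 14259 and zeb2a at 27.6. Migratory replicates 8 and 1, with list means of 13.30 and 11.44, held twist1a at 2109 and 0.

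Of the Zeb genes, zeb2a (ENSDARG00000062338) was the member that rose. Its values were 763, 19.3, 1.05 and 27.6 in premigratory replicates 1 to 4 and 517 to 5724 with a median of 3458 in migratory libraries. All migratory libraries lay above premigratory replicates 2 to 4, and migratory replicate 1, at 517, lay below premigratory replicate 1. The gene rose, with a log2 fold change of 6.41 (SE 1.44, 95% interval 3.37 to 9.46, limma adjusted p = 0.0111), 3.75 above the median of all tested genes. Leaving out any single library kept the call, with log2 fold changes of 5.11 to 7.96. The call was lost with the fixed replicate block (limma, log2 fold change 5.75, adjusted p = 0.226), a difference that rests on batches 1 to 4 alone. It was also lost with quantile normalisation (limma, log2 fold change 2.71, adjusted p = 0.139), where the median of all tested genes was 0.75. Nor was zeb2a called over batches 1 to 4, with or without the block, or with the number of detected genes as a covariate. Within shared batch numbers zeb2a was higher in 3 of 4 pairs, by 5.82, 10.50 and 7.26 on the log2 scale for pairs 2, 3 and 4, and differed by -0.56 for pair 1.

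The row named ZEB2 (ENSDARG00000078416) stayed at 33.8 or less in every library. Its values were 2.30, 8.66, 0 and 7.70 in premigratory replicates 1 to 4, and 0 to 33.8 with a median of 11.3 in migratory libraries. The groups overlapped, with 4 of 8 migratory and no premigratory library at 10 or more. ZEB2 had a log2 fold change of 1.07 (SE 1.27, 95% interval -1.62 to 3.76, limma adjusted p = 0.585). On average the log2 ratio of zeb2a to ZEB2 was 2.92 ± 3.31 among premigratory libraries (SD, n = 4) and 8.26 ± 2.48 among migratory ones (SD, n = 8). This difference of 5.34 had an exact permutation p of 0.0141 and did not pass over 5 pairs (adjusted p = 0.0707). It is the log2 fold change of zeb2a, 6.41, less that of ZEB2, 1.07, so it mostly follows the rise of zeb2a. ZEB2 was below 10 in every premigratory library, and both genes were in replicate 3, so the ratio there rests partly on the added 1. In migratory replicates 5 to 8 ZEB2 was also below 10, at 0, 2, 3.97 and 8.97. The ratio was highest in these libraries, at 11.94, 10.53, 10.17 and 8.23, and there too it rests partly on the added 1. Without premigratory replicate 1, where the ratio was highest among premigratory libraries, the difference was 6.99 (exact permutation, adjusted p = 0.0303). Without migratory replicate 1, where the ratio was lowest among migratory libraries, the difference was 5.87 (exact permutation, adjusted p = 0.0455). Both omissions raise the difference by construction and support no call.

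For zeb1a (ENSDARG00000016788) the signal came and went between libraries of both stages. It was at 439 in premigratory replicate 2 and at 7.57 or less in the other premigratory libraries. Migratory replicates 4, 6 and 7 were at 11.2, 121 and 51.7, and the other 5 at 1.29 or less. The log2 fold change was -0.71 (SE 1.83, 95% interval -4.56 to 3.15, limma adjusted p = 0.814) and turned to 1.23 without premigratory replicate 2, the only premigratory library with clear signal.

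The row named ZEB1 (ENSDARG00000013207) was nearly empty in premigratory libraries, with 0 in replicates 1 to 3 and 5.79 in replicate 4. Migratory values ran from 0 to 703 with a median of 241. Replicates 3, 6, 7 and 8 held 610, 703, 519 and 469, and the other 4 lay at 12.8 or less. The same 4 libraries held the highest migratory values of snai2, at 12557, 8629, 9403 and 4629, against 1682 to 3045 in the rest. Premigratory replicates 1 and 2 held snai2 at 3586 and 19557 with ZEB1 at 0. Premigratory replicates 3 and 4 held snai2 at 4.01 and 159 with ZEB1 at 0 and 5.79. A link between these genes was not tested. For ZEB1 the stages differed by 4.61 on the log2 scale (SE 2.06, 95% interval 0.27 to 8.96), which did not pass the test over all genes (limma, adjusted p = 0.134). The mean log2 ratio of zeb1a to ZEB1 went from 2.28 ± 4.34 (SD, n = 4) to -3.04 ± 3.62 (SD, n = 8) at the later stage (exact permutation, p = 0.0525, adjusted p = 0.131). Without migratory replicate 1, where it was highest among migratory libraries, the difference was -5.85 (exact permutation, adjusted p = 0.0455). Leaving that library out enlarges the difference by construction and supports no call. In premigratory replicates 1, 3 and 4 and migratory replicates 1, 2 and 5 both genes were below 10, so the ratio there rests on the added 1.

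**Figure D3:**
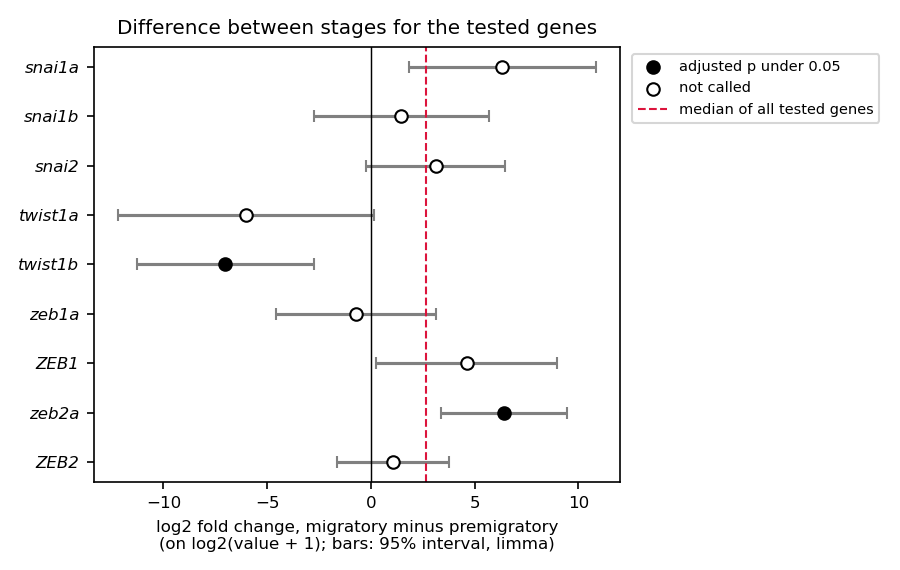
Points are the log2 fold changes, migratory minus premigratory, of the 9 tested genes on log2(value + 1), with 95% intervals from limma, and filled points have an adjusted p under 0.05. The dashed line marks the median of all tested genes, 2.67. The interval of zeb2a, 3.37 to 9.46, lies above that line and that of twist1b, -11.27 to -2.75, below 0.

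**Figure D4:**
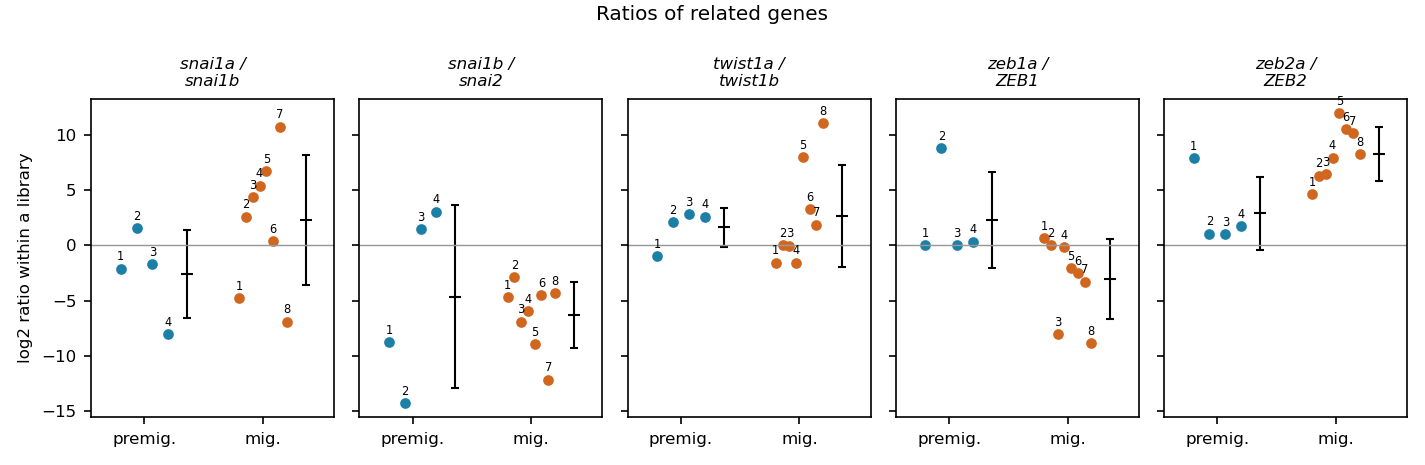
Each panel shows the log2 ratio of a pair of related genes within each library, on log2((first value + 1)/(second value + 1)), with premigratory libraries in blue, migratory libraries in orange, replicate numbers above the points and the mean and SD in black. The zeb2a to ZEB2 ratio is at 1.03 to 1.72 in premigratory replicates 2 to 4, at 7.86 in replicate 1 and at 4.60 to 11.94 in migratory libraries.

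Values were also summed by family. Levels are not comparable between genes and most of a sum can come from 1 gene, so the sums largely repeat the single-gene values. In premigratory replicates 1 and 2, for example, the Zeb sum was mostly zeb2a (763) and zeb1a (439). Snail genes together were at 3594, 19559, 20.4 and 1472 in premigratory replicates 1 to 4 and at 2188 to 14745 in migratory libraries. The Twist sum was 1.00 in premigratory replicate 1 and 16537 to 17815 in replicates 2 to 4, against 0.981 to 2625 during migration, so every migratory library was below each of those 3 libraries. The Zeb sum was 765, 467, 1.05 and 48.7 in premigratory replicates 1 to 4 and 538 to 6298 in migratory libraries, with only premigratory replicate 1 inside the migratory range.

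Of the 10 genes, 3.75 ± 1.5 per premigratory library (SD, n = 4) and 5.75 ± 1.75 per migratory library (SD, n = 8) were at 10 or more. Over the whole table the corresponding shares were 21.2% ± 5.98 and 40.8% ± 4.09 of genes. Migratory replicate 6 held 9 of 10, all but ZEB2, and also had the second highest share of all genes at 10 or more, 45%. Premigratory replicate 1 held 2 of 10, snai2 and zeb2a. Besides these, premigratory replicate 3 held 3 of 10, namely snai1b, twist1a and twist1b, and was the library with the lowest share of all genes at 10 or more, 14.1%.

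By likeness of pattern, the Pearson correlation of log2(value + 1) over the 12 libraries was computed between each tested member and the other genes with a mean of 50 or more (10641 genes, or 10642 for ZEB2). These values describe 12 points that share stage and library and carry no test. Nearest to zeb2a were zgc:92606, PSEN2 and NECAP2 (r = 0.967, 0.966 and 0.962). Nearest to twist1a were THAP11, septin12 and P3H1 (r = 0.917, 0.875 and 0.867), and to twist1b UTP20, col15a1b and INSR (r = 0.900, 0.898 and 0.888). PLPPR1, NPRL3 and EIF4G3 were nearest to snai1a (r = 0.962, 0.921 and 0.912), and RCC2, ITM2B and PYURF to snai2 (r = 0.956, 0.948 and 0.935). For snai1b these were hemk1, ube2q1 and si:ch211-157b11.12 (r = 0.908, 0.851 and 0.847). C1H3orf70, nfil3-3 and ANKRD46 were nearest to ZEB1 (r = 0.984, 0.982 and 0.978), SKI to zeb1a (r = 0.923), and INTU, DNPEP and ifi27.5 to ZEB2 (r = 0.860, 0.858 and 0.858).

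Genes that act with these factors were counted in lists, each to be read against all tested genes, of which 12.4% rose, and 31.8% were higher and 0.66% lower at an unadjusted p under 0.05. Of 28 tested corepressor genes of Snail and Zeb proteins, none passed in limma in either direction, with 4 higher (14.3%) and 1 lower at an unadjusted p under 0.05 and a median log2 fold change of 1.56. The smallest p belonged to CTBP1, which encodes the corepressor that binds Zeb proteins, at 19.8 ± 35.3 (SD, n = 4) and 933 ± 541 (SD, n = 8) with a limma adjusted p of 0.0545. A second ctbp1 row was at 1915 ± 1958 and 2557 ± 1651 (log2 fold change 0.97, limma adjusted p = 0.472). Next by p was CHD4, a chromatin remodeller, at 4203 ± 3347 and 581 ± 448 (limma adjusted p = 0.0901). Its related row chd4b was at 1778 ± 979 and 1623 ± 814 (log2 fold change -0.13, limma adjusted p = 0.935). Of 6 tested genes for E proteins, the dimer partners of Twist, and for Id proteins, which sequester E proteins, none passed and none reached an unadjusted p under 0.05 in limma. ID1 was at 24399 ± 13536 and 10472 ± 6190 (limma adjusted p = 0.156), and tcf3b at 1566 ± 3101 and 856 ± 893 (limma adjusted p = 0.207). Of a list of other Snail relatives and mesenchymal or epithelial regulators, 5 genes could be tested, none of them a Snail relative (KLF8, LEF1, grhl2a, GRHL2 and grhl3). None passed in limma and 1, KLF8, had an unadjusted p under 0.05 (138 ± 217 in migratory and 0.686 ± 1.37 in premigratory libraries, adjusted p = 0.0891), followed by grhl2a (limma adjusted p = 0.306). A further list held 24 tested genes of TGF-beta, BMP and Notch signals and other regulators, with inhibitors among them. Of these SMAD2, a transducer of TGF-beta signals, rose (log2 fold change 6.00, SE 1.80, limma adjusted p = 0.0398). The share that rose was 4.17% and none fell, with 3 higher (12.5%) and 0 lower at an unadjusted p under 0.05. FBXW11, part of a ubiquitin ligase, was next (limma adjusted p = 0.0961).

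Target genes of the factors showed few calls. Of 32 tested epithelial genes 1 rose, the simple epithelial keratin krt18b (log2 fold change 8.83, SE 2.22, limma adjusted p = 0.019), and none fell, with 4 higher (12.5%) and 1 lower at an unadjusted p under 0.05 and a median log2 fold change of 0.68. The values of krt18b were 0.970 ± 1.12 (SD, n = 4) before and 3853 ± 3610 (SD, n = 8) during migration. It thus passed the filter through migratory libraries alone. The share that rose was 3.12%, below the 12.4% of all tested genes. The keratin krt8 was at 23434 ± 29748 (SD, n = 4) and 2768 ± 2649 (SD, n = 8), with a limma adjusted p of 0.0567. E-cadherin, cdh1, a well known target of Snail and Zeb proteins, was named after its values were seen. It was at 9126 in premigratory replicate 1 and 3.72 to 13.5 in the other 3 premigratory libraries, and at 0 to 6806 in migratory libraries (limma, log2 fold change 3.57, SE 2.56, adjusted p = 0.341). The zeb2a and cdh1 values were thus both highest in replicate 1 among premigratory libraries, the library with the highest epidermis sum, and the part of epidermal cells in either value was not tested.

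Of 29 tested mesenchymal and migratory genes 3 rose and none fell, with 6 higher (20.7%) and 0 lower at an unadjusted p under 0.05 and a median log2 fold change of 1.75. Among them were mmp17b, a membrane-bound matrix protease of migrating crest (log2 fold change 8.22, SE 1.88, limma adjusted p = 0.0121), and ITGAV, an integrin subunit (5.92, SE 1.80, adjusted p = 0.041). The share of 10.3% is close to the 12.4% of all tested genes. Of 20 tested crest regulators beside the 10 genes, 2 rose, PAX3 (6.61, SE 1.62, limma adjusted p = 0.017) and FOXD3 (5.65, SE 1.65, adjusted p = 0.0357), and 1 fell, DLX5 (-7.24, SE 2.30, adjusted p = 0.048). PAX3 was at 1.96 ± 3.92 (SD, n = 4) and 392 ± 409 (SD, n = 8), so it passed the filter through migratory libraries alone. FOXD3 was at 2522, 5.80, 1.99 and 2940 in premigratory replicates 1 to 4 and at 978 to 10734 in migratory libraries. Premigratory replicates 1 and 4 thus lay within its migratory range. PAX3, FOXD3 and DLX5 are all transcription factors of crest or its border, and the share that rose, 10%, is close to the 12.4% of all tested genes.

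Among marker lists of cell types, muscle and somite genes had 6 of 23 tested rows higher in limma (26.1%), neural crest genes 5 of 15 (33.3%), and sclerotome and neural tube genes 1 of 8 each (12.5%), against 12.4% of all tested genes. The neural crest count includes zeb2a itself, and PAX3 and FOXD3 from the crest regulators. Most of the called muscle and crest rows had no premigratory value of 10 or more, such as ckma (premigratory mean 1.71) and PAX3 (1.96). Like the called sclerotome and neural tube rows, they passed the filter through migratory libraries alone. These shares are therefore description and support no statement about the lists. None passed of 20 epidermis, 7 blood, 3 endothelium and 3 notochord rows, where an unadjusted p under 0.05 was reached by 2 epidermis rows (lower) and 1 blood row (higher) and by no endothelium or notochord row. Without premigratory replicate 1 and migratory replicate 5, where crestin was lowest, 1 of the 10 genes was called higher and 2 lower, namely zeb2a (limma, log2 fold change 7.88, adjusted p = 0.00235), twist1a (-9.99, adjusted p = 0.0321) and twist1b (-9.34, adjusted p = 0.0051). Premigratory replicate 1 was also the premigratory library with the lowest twist1a and twist1b and the highest zeb2a. Leaving it out enlarges these changes by construction and supports no call. With migratory replicates 1 and 8 also left out, an alternative chosen after seeing the data, the value of snai1a was 8.52 (limma, adjusted p = 0.0113), which again leaves out its 2 lowest migratory libraries and supports no call.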

How the data were processed

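Cells were amplified with SMART-Seq v4 chemistry and libraries made by Nextera tagmentation, per the labels' protocols. The submitters' processing notes name fastp 1.0, Salmon and the GRCz11 build without giving their roles. The table holds a signal per gene that the authors deposited as normalised counts. How they were normalised, annotated and filtered is not given in the sources used here. Of low values, 20.9% to 47.2% per library lay within 0.05 of a whole number, so reads were not recovered and the depth in reads is unknown. Reads were amplified and carry no molecular identifiers.

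Gene names came from a table of Ensembl identifiers, and 2274 identifiers had none. Near-identical copies may share reads. A member without a row lost its final paralog letter, ignoring case. No column was left out. The highest Pearson correlation of any pair of libraries was 0.805 on log2(value + 1), so none was a copy of another.

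The test was limma 3.58.1 (R 4.3.3), lmFit and eBayes with trend on log2(value + 1), group as the only term, with Benjamini-Hochberg adjustment over all tested genes. Ratios of related genes were compared by exact two-sided permutation (smallest possible p 0.00202). Scripts were tested on simulated data. Other software was matplotlib 3.10.9, pandas 2.3.3, numpy 2.4.6 and Python 3.11.15. Alternatives are given below, and each kept the genes that passed the filter over all 12 libraries unless the filter itself was changed. Genes named from a list are its called genes (up to 4), or those with the smallest p to make 2, except that some genes of the lists are not reported here. Members and lists were chosen with earlier results of these data known. Whether cultures or embryos were separate is known only from the word biological in the labels, so p-values reflect only how far these libraries vary.

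Replicate numbers are named batches in the labels and were therefore treated as pairing libraries 1 to 4 of both stages. Correlations of deviations from the group mean were 0.155, 0.0118, 0.0424 and 0.0342 in the same-numbered pairs 1 to 4, and -0.0924 to 0.123 in other pairs. Batches 5 to 8 hold migratory libraries only. Each of them is 1 library, so with the fixed replicate block they add nothing to the stage difference, which rests on pairs 1 to 4. The paired result is given where it changes a call.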

Additional observations from a re-analysis of the deposited data

Results flagged for a closer look

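Values on the log2(value + 1) scale were screened for libraries far from the rest of their group, in 32 groups, of which 6 were picked out. The cut-off is meant to pick about 1 in 20 by chance for normal, independent values. Here many values are 0 and the ratios reuse the same genes, so that share does not apply and no excess is read from 6 of 32. In premigratory libraries twist1a was at 0.00 in replicate 1, with the nearest library at 13.80, and twist1b at 1.00 in replicate 1, with the nearest at 10.99. In the same group ZEB1 was at 2.76 in replicate 4, with the others at 0, a value under 10 before the log. The zeb1a to ZEB1 ratio was 8.78 in premigratory replicate 2, with the nearest at 0.34, and the zeb2a to ZEB2 ratio 7.86 in premigratory replicate 1, with the nearest at 1.72. Among migratory libraries twist1b was at 7.63 in replicate 6, with the nearest at 1.98. Of these 6, 3 come from premigratory replicate 1.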

How the results depend on the processing

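With all 12 libraries 1508 genes were called higher and 16 lower, and of the 10 genes 1 was higher (zeb2a) and 1 lower (twist1b). Genes higher numbered 821 with a pseudocount of 10, 851 without a filter (7 lower), 283 with quantile normalisation, 677 (67 lower) with trimmed mean of M values and 730 (58 lower) with median of ratios. Library weights gave 5 lower. Batches 1 to 4 gave 239 higher and 2 lower, with 0 and 0 of the 10 genes. With the fixed replicate block limma called 0 higher and 0 lower genes (2241 and 81 at an unadjusted p under 0.05). Batches 1 to 4 with the block, added after seeing the data, gave 1 and 0. Both block fits take the stage difference from batches 1 to 4, so they are not separate checks. Neither block fit called any of the 10 genes (0 higher, 0 lower), with 2 higher and 2 lower at an unadjusted p under 0.05. The random block, with a correlation of 0.0175, changed no call of the 10 genes. With the number of detected genes as a covariate, which differs between the stages, limma called 0 and 0 genes (411 and 412 at an unadjusted p under 0.05) and 0 and 0 of the 10 (1 and 2 unadjusted). Of the 10 genes, 2 were called higher with a filter of 100 (snai1a, adjusted p = 0.0478), 0 higher with quantile normalisation and 0 lower without a filter (twist1b, adjusted p = 0.0906). The median of all tested genes was 2.35 with the same total, 1.69 with trimmed mean of M values, 1.79 with median of ratios, 0.75 with quantile normalisation, 0.94 without a filter and -0.21 with the covariate.

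Leaving out 1 library gave 766 to 1843 higher and 6 to 19 lower genes, and 1 to 2 higher and 0 to 2 lower of the 10. The count of higher genes was 766 without premigratory replicate 3 and 961 without migratory replicate 8, and that of lower genes 6 to 9 without premigratory replicates 2 or 3 or migratory replicates 2, 3, 7 or 8. Leaving out premigratory replicate 1 and migratory replicates 1, 5 and 8 gave 590 and 7 genes, with 2 and 2 of the 10. Signs turned for genes that were not called. With quantile normalisation snai1b was at -1.51 and ZEB2 at -2.29, and with the covariate snai1b was at -3.10, snai2 at -3.79, ZEB1 at -2.96 and ZEB2 at -2.19. Without 1 library zeb1a ran from -1.70 to 1.23, the latter without premigratory replicate 2. The cause was not tested.

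Of the ratios, zeb2a to ZEB2 passed with a pseudocount of 10 (5.07, exact permutation adjusted p = 0.0303) and ran from 4.72 to 6.99 without 1 library. The others ran from 3.06 to 6.25 (snai1a to snai1b), -6.08 to -3.15 (zeb1a to ZEB1), -4.87 to 0.90 (snai1b to snai2, turning to 0.38 and 0.90 without premigratory replicates 3 and 4) and -0.21 to 1.59 (twist1a to twist1b, turning to -0.21 without migratory replicate 8). In the paired replicate block over batches 1 to 4 the twist1a to twist1b ratio was -2.42 (exact sign flips, adjusted p = 0.469, smallest unadjusted p 0.125). The mean number of the 10 genes per premigratory library was 7 at a threshold of 1. The depth in reads is unknown, so no limit of detection is given for values of 0.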
